A study of Mus musculus with 24 samples.

Results

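The replication-dependent histone genes of the clusters on chromosomes 13 and 3 were described in conventional dendritic cells (cDC) of mouse spleen. Members were the genes whose platform symbol starts with Hist1, Hist2, Hist3 or Hist4, or carries the newer cluster names, and MHC genes written H2- were not members. The rule found 27 genes among the 19938 that had a probe set with a single gene symbol, and each of the 27 had 1 such probe set. They comprised 5 genes for linker histone H1, 4 for H2A, 9 for H2B, 3 for H3 and 6 for H4. Of these, 23 lie on chromosome 13 and 4 on chromosome 3. The arrays came from female NOD and C57BL/6 (B6) mice, 8 to 10 weeks of age, injected with PBS or with CpG-A and killed 12 h later. CpG-A is an oligonucleotide ligand of Toll-like receptor 9, and NOD mice develop autoimmune diabetes. CD11c+ cells from collagenase-digested spleen were sorted into CD8+ and CD11b+ cDC. Strain, injection and subset gave 8 groups of 3 arrays, and no group carried a transgene or a deletion according to the labels. The labels do not say whether the 3 arrays of a group came from separate mice, so p-values measure the spread between these samples only.

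Histone proteins package DNA into nucleosomes, which are built from H2A, H2B, H3 and H4 and are bound between units by linker histone H1. The clustered genes are transcribed mainly during S phase, when new DNA has to be packaged. Most of their messages have no introns and end in a conserved stem-loop in place of a poly(A) tail, which the stem-loop binding protein SLBP recognises. NPAT drives their transcription under cyclin E and CDK2. Replacement histones such as H2A.Z are made throughout the cell cycle from genes outside the clusters. Dendritic cells divide in the spleen before they mature, and activation by Toll-like receptor ligands is known to end their division.

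The promoters of 4 members are printed as examples of genes that differed between strains or injections. H2bc8 and H3c4 were lower in NOD, H2bc18 was higher in NOD after CpG-A, and H1f5 fell after CpG-A in B6. Each window runs from 250 bases before to 50 bases after the gene start and is the RefSeq sequence of GRCm38.p6, the C57BL/6J reference. The NOD sequence was not analysed here. Capitals mark the octamer ATTTGCAT, CCAAT and TATAAA, each on either strand.
H2bc8, chr13:23571150-23571449, plus strand: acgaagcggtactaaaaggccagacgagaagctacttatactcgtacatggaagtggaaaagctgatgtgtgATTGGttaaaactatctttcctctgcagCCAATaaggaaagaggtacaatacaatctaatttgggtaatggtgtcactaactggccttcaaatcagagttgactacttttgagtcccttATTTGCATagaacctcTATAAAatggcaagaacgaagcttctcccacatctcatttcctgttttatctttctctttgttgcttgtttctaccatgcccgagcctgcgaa
H3c4, chr13:23575513-23575812, plus strand: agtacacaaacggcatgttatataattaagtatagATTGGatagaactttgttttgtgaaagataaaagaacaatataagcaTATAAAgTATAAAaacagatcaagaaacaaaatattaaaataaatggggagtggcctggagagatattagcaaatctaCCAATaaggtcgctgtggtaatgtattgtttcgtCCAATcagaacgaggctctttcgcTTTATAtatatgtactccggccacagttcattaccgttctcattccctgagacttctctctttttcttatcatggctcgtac
H2bc18, chr3:96269450-96269749, plus strand: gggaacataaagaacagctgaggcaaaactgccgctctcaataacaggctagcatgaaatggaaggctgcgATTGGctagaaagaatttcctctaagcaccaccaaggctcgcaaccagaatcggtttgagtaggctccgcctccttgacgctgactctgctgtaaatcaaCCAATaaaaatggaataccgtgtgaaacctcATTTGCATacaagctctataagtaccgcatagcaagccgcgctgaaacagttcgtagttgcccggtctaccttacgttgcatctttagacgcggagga
H1f5, chr13:21780576-21780875, minus strand: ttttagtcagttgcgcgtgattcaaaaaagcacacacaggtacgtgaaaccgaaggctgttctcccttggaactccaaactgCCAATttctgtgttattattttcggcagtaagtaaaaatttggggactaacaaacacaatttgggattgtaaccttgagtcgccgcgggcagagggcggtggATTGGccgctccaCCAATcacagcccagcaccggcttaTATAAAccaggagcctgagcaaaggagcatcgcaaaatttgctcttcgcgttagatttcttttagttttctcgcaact
A window was found for 23 of the 27 members, and H2bc4, H2bc21, H3c7 and H4c14 were not matched. The octamer, which POU2F1 binds in H2B promoters, was present in 8 of the 23 windows, in 5 of 7 for H2B and 3 of 4 for H2A. No window of an H1, H3 or H4 member held it, and 1.74% of all 32851 promoter windows did. CCAAT was present in 20 of the 23 windows, against 37.4% of all windows. TATAAA was present in 15 of the 23, against 13.6%. The H1 box AAACACA was present in 4 of 5 windows of H1 members and in 8 of all 23, against 7.18% of all windows. The windows of H2bc8 and H2ac8 overlap on opposite strands, as do those of H2bc1 and H2ac1, and each pair shares its octamer, so the 8 windows hold 6 distinct stretches. A match describes letters in the window and is not evidence of binding.

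Values are deposited log2 expression values, and a difference of 1 is a 2-fold change. Each difference is followed by its standard error from limma, with n = 3 arrays in every group. A gene was called higher or lower, or was said to have risen or fallen, where the Benjamini-Hochberg adjusted p over the 11228 tested genes was under 0.05. A gene was tested where it exceeded the array's own median, which lay between 5.79 and 5.87, on at least 3 of the 24 arrays. Of the members, 23 were tested. H1f6, the testis-specific linker histone, H2ac8 and H2bc1, the testis-specific H2B, exceeded the median on 0 arrays, and H3c15 did so on 1 array. H1f3 passed only through the 3 arrays of B6 CD11b+ cDC under PBS, so its differences from that group follow partly from the filter. The coding regions of clustered histone genes are nearly identical, so probes may pick up relatives and the assignment of a value to 1 gene is uncertain. A lower value can come from fewer dividing cells in the sort or from less message per cell, and these cannot be told apart in sorted bulk RNA. In NOD, base differences from the reference under a probe could also lower a value, including those of H2bc8, H3c4 and H2bc4, which was not tested.

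The largest differences between strains were those of H2B and H3 genes lying near each other on chromosome 13. H2bc8, H3c4 and H2bc4 were lower in NOD than in B6 in all 4 comparisons of the strains, which share no arrays. In the order of GRCm38.p6 these genes follow each other as H2ac8, H2bc8, H3c4, H4c4 and H2bc4, with 2 other genes between H2bc8 and H3c4 and 5 between H4c4 and H2bc4. Counting all members, NOD was lower for 6 and higher for 0 of 23 in CD8+ cDC under PBS, where 3.62% of all genes were called, 2.03% higher and 1.59% lower. In CD11b+ cDC under PBS it was lower for 10 and higher for 0, where 5.59% of all genes were called, 2.41% higher and 3.18% lower. H1f3, among the 10, passed the filter only through the B6 arrays of this comparison. Without it 9 of 22 members were lower. After CpG-A, NOD was higher for 2 and lower for 4 members in CD8+ cDC, where 20.2% of all genes were called, 12.4% higher and 7.84% lower. In CD11b+ cDC after CpG-A it was higher for 3 and lower for 4, where 23.2% were called, 13.9% higher and 9.22% lower. Groups did not overlap for 10, 13, 8 and 11 of the 23 members in that order, against 19.7%, 23.5%, 24% and 40.9% of all genes. The median member difference, NOD minus B6, was -0.37 and -0.59 under PBS and -0.03 and -0.09 after CpG-A in CD8+ and CD11b+ cDC, against medians over all genes of 0.01, -0.00, 0.04 and 0.03.

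H2bc8 encodes a core H2B. In CD8+ cDC under PBS it read 9.83, 10.37 and 10.32 in B6 and 7.24, 7.50 and 7.63 in NOD. In CD11b+ cDC under PBS it read 10.62, 11.12 and 10.74 in B6 and 7.53, 8.05 and 7.18 in NOD. After CpG-A it read 9.72, 10.31 and 10.27 in B6 CD8+ cDC and 6.81, 6.84 and 7.27 in NOD CD8+ cDC, and 9.42, 9.91 and 9.83 in B6 CD11b+ cDC and 7.45, 7.0 and 7.07 in NOD CD11b+ cDC. Every one of the 12 NOD arrays lay below every one of the 12 B6 arrays, with a gap from 8.05 to 9.42. The differences were -2.72 ± 0.21 and -3.24 ± 0.21 under PBS, with adjusted p of 9.46e-09 and 2.45e-10. After CpG-A they were -3.12 ± 0.21 and -2.55 ± 0.21, with adjusted p of 4.94e-10 and 6.62e-09. On the linear scale H2bc8 was 6.59-fold, 9.43-fold, 8.72-fold and 5.85-fold lower in NOD.

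H3c4 encodes a core H3. Under PBS it read 7.61, 8.08 and 8.22 in B6 CD8+ cDC and 6.67, 6.33 and 6.44 in NOD CD8+ cDC, and 7.55, 8.48 and 8.57 in B6 CD11b+ cDC and 6.35, 6.60 and 6.12 in NOD CD11b+ cDC. After CpG-A it read 7.55, 7.87 and 8.25 against 5.70, 6.18 and 5.88 in CD8+ cDC, and 6.74, 7.19 and 7.21 against 6.48, 5.83 and 6.23 in CD11b+ cDC, B6 before NOD. The 12 NOD arrays again all lay below the 12 B6 arrays, but the gap was narrow, from 6.67 to 6.74. The differences were -1.49 ± 0.24 and -1.84 ± 0.24 under PBS and -1.97 ± 0.24 and -0.86 ± 0.24 after CpG-A, with adjusted p of 0.000307, 1.24e-05, 3.35e-06 and 0.0103. The last of these was no longer called without replicate 2 of NOD CD11b+ cDC after CpG-A, when the difference was -0.69 with an adjusted p of 0.0733.

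H2bc4, a further core H2B, read 8.22, 8.61 and 8.53 in B6 CD8+ cDC under PBS against 4.52, 6.34 and 5.73 in NOD. In CD11b+ cDC under PBS it read 8.05, 8.52 and 8.19 in B6 against 4.14, 5.89 and 5.53 in NOD. After CpG-A it read 7.55, 8.55 and 8.23 against 5.94, 6.59 and 6.17 in CD8+ cDC, and 6.47, 7.41 and 7.42 against 4.92, 5.62 and 5.26 in CD11b+ cDC. Within each of the 4 comparisons the groups did not overlap. Replicate 1 of both NOD groups under PBS lay more than 1 log2 unit below the other 2 arrays, so the spread was wide. In NOD it exceeded the array median on 1 array under PBS and 3 after CpG-A in CD8+ cDC, and on 1 and 0 in CD11b+ cDC, so the size of the differences rests on low signal in NOD. The differences were -2.92 ± 0.40, -3.07 ± 0.40, -1.87 ± 0.40 and -1.83 ± 0.40, with adjusted p of 3.75e-05, 1.44e-05, 0.00199 and 0.00163. Of the other tested members, H3c4 and H2bc4 had the highest correlations with H2bc8 over the 24 arrays, with r of 0.94 and 0.89. Those values hold the strain difference, and within groups the correlations of the deviations were 0.62 and 0.46.

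Genes lying among these 3 differed less. H4c4, an H4 gene between H3c4 and H2bc4, read 11.72, 11.95 and 11.90 in B6 CD8+ cDC under PBS and 11.09, 11.36 and 11.47 in NOD. Its differences were -0.56 ± 0.14 and -0.59 ± 0.14 under PBS, with adjusted p of 0.0187 and 0.00889, and -0.37 ± 0.14 and -0.14 ± 0.14 after CpG-A, which did not pass. Quantile normalization and median centring each ended the call in CD8+ cDC under PBS, as did leaving out replicate 2 or 3 of B6 or replicate 1 of NOD, with values of -0.53 to -0.45. In CD11b+ cDC under PBS it ended without replicate 1 of either strain, at -0.54 to -0.47. H2ac8, which adjoins H2bc8, stayed below the array medians in all groups and was not tested. On the other side, H4c3 had differences from -0.39 to 0.47 and was called in none of the 4 comparisons.

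**Figure D1:**
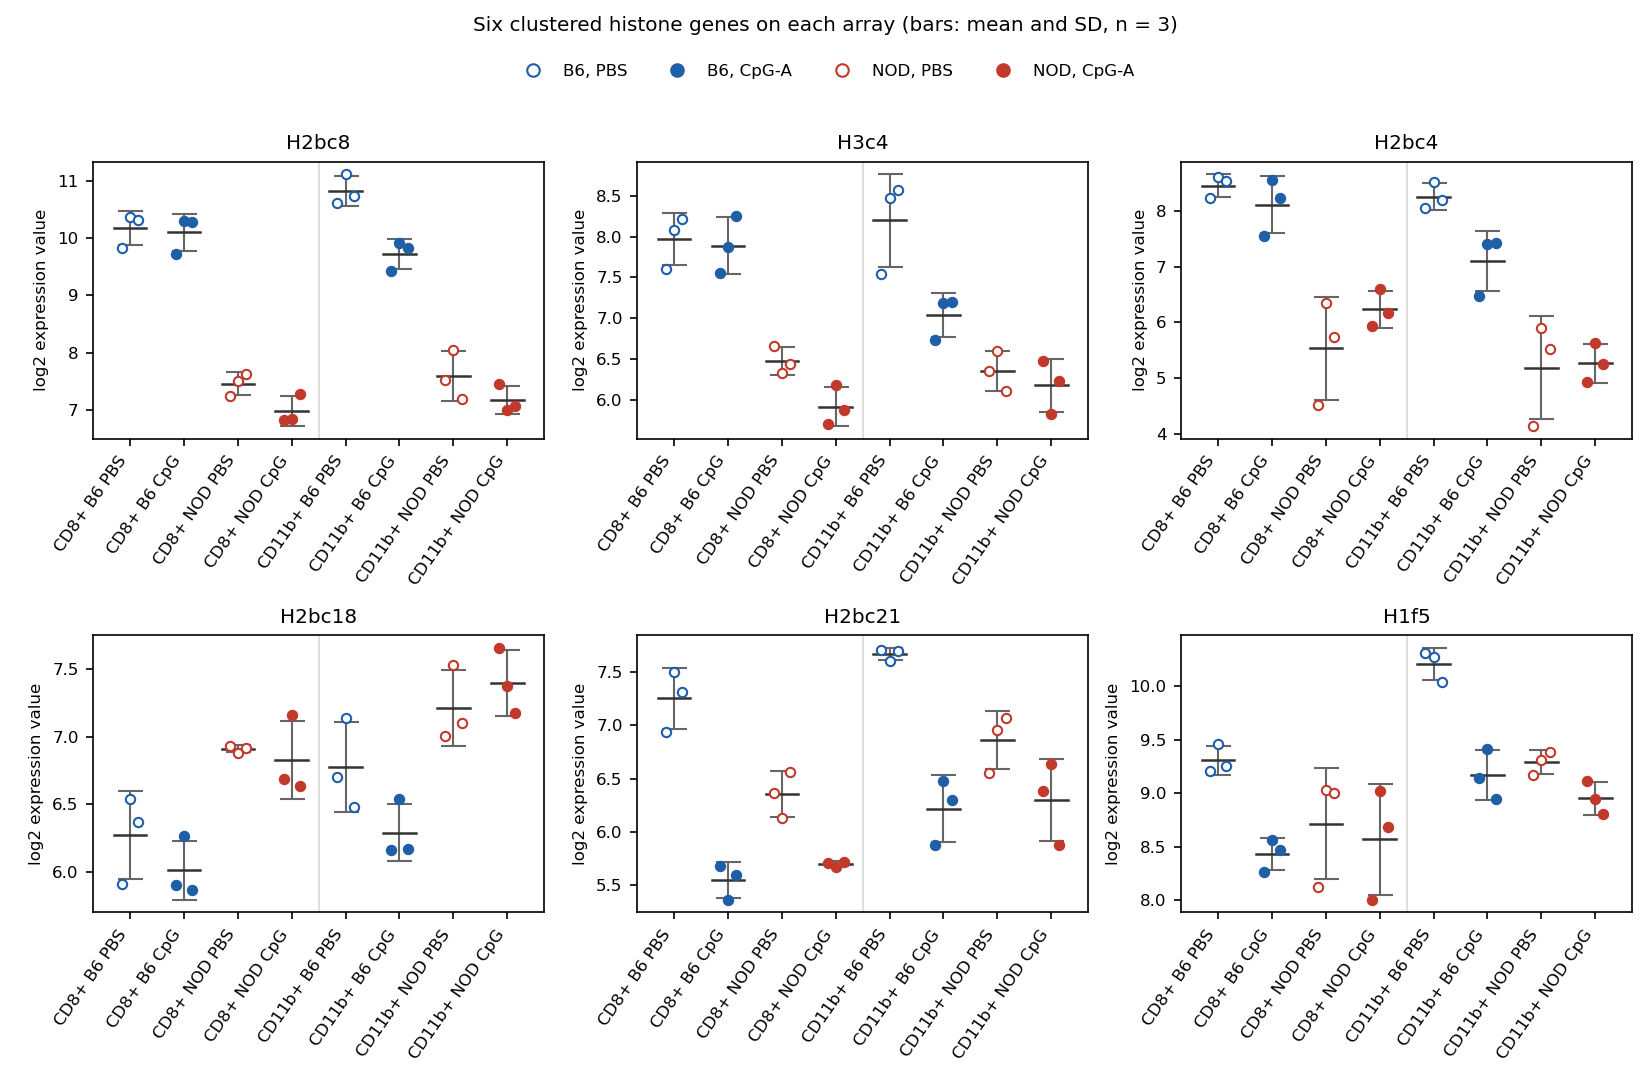
Log2 expression value of 6 clustered histone genes on each array, with 8 groups on the horizontal axis. Open points are PBS and filled points CpG-A, blue is B6 and red NOD, and bars give the mean and SD of 3 arrays. H2bc8 and H3c4 are lower on all NOD arrays, H2bc18 is higher in NOD after CpG-A, and H2bc21 is lower after CpG-A.

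Of the 3 tested members on chromosome 3, H2bc21 and H4c14 were also lower in NOD under PBS, while H2bc18 was not called and had higher means there. H2bc21, an H2B gene, read 6.94, 7.51 and 7.32 in B6 CD8+ cDC against 6.37, 6.13 and 6.56 in NOD. In CD11b+ cDC it read 7.71, 7.61 and 7.70 against 6.55, 6.96 and 7.07. Groups did not overlap in either subset, and the differences were -0.90 ± 0.19 and -0.81 ± 0.19, with adjusted p of 0.00438 and 0.00784. Without replicate 1 of NOD the difference in CD11b+ cDC was -0.66 and not called. After CpG-A its differences between strains were 0.15 ± 0.19 and 0.08 ± 0.19 and did not pass, and in CD8+ cDC it then lay below the array median on all 6 arrays. H4c14, an H4 gene also on chromosome 3, was lower by -0.69 ± 0.15 and -0.76 ± 0.15 under PBS, with adjusted p of 0.00746 and 0.00231. The first was -0.59 and not called without replicate 2 of B6 or replicate 1 of NOD. After CpG-A, H4c14 remained lower in CD11b+ cDC, by -0.53 ± 0.15 with adjusted p = 0.0133, a call that ended under median centring and without replicate 1 or 2 of B6 or replicate 2 or 3 of NOD, at -0.49 to -0.45.

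Of the 4 tested linker genes, 3 were lower in NOD CD11b+ cDC under PBS, and H1f2 was not called, at 0.11 ± 0.19. H1f1 read 8.84, 8.63 and 8.20 in B6 and 7.09, 7.42 and 7.54 in NOD, a difference of -1.20 ± 0.22 with adjusted p = 0.00116. H1f5 read 10.31, 10.28 and 10.04 in B6 and 9.17, 9.31 and 9.39 in NOD, a difference of -0.92 ± 0.21 with adjusted p = 0.00899. H1f3 was lower by -0.98 ± 0.18 with adjusted p = 0.00111, subject to the filter described above. None of these groups overlapped. In CD8+ cDC the same 3 genes had differences of -0.41 ± 0.22, -0.59 ± 0.21 and -0.29 ± 0.18, which did not pass. H4c6 was lower in CD11b+ cDC under PBS, by -0.78 ± 0.23 with adjusted p = 0.0451, and median centring, testing without the filter and leaving out any array but replicate 3 of B6 each ended that call. H2ac4 differed by -1.20 ± 0.40 and -1.24 ± 0.40 under PBS without passing.

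Members higher in NOD were found after CpG-A. H2bc18, an H2B gene on chromosome 3, read 5.91, 6.27 and 5.87 in B6 CD8+ cDC and 6.69, 7.16 and 6.64 in NOD. In CD11b+ cDC it read 6.17, 6.54 and 6.17 in B6 and 7.66, 7.37 and 7.17 in NOD. The NOD arrays lay above the B6 arrays in both subsets, by 0.81 ± 0.19 and 1.11 ± 0.19, with adjusted p of 0.00459 and 0.000169. Under PBS its differences were 0.63 ± 0.19 and 0.44 ± 0.19 and did not pass, and with the replicate number as a block the first passed with adjusted p = 0.0109. H1f2 was higher by 0.60 ± 0.19 and 0.78 ± 0.19 after CpG-A, with adjusted p of 0.0289 and 0.00385, and the CD8+ groups overlapped. The CD8+ call of H1f2 ended without replicate 1 of B6 or replicate 1 or 2 of NOD, at 0.39 to 0.61. H2bc9 was higher in CD11b+ cDC by 0.55 ± 0.13 with adjusted p = 0.00378. H4c9 was lower in NOD CD8+ cDC after CpG-A, by -0.51 ± 0.12 with adjusted p = 0.005. In CD8+ cDC the calls of H2bc18, H1f2 and H4c9 ended when the 2 groups were fitted alone. Same-numbered arrays deviated together in that comparison, and with the replicate number as a block it gave 4 higher and 5 lower members. The block added H2bc14 at 0.46 ± 0.16 and H2bc9 at 0.35 ± 0.12 as higher, with adjusted p of 0.0354 and 0.0291, and H4c4 at -0.37 ± 0.12 as lower, with adjusted p = 0.0342.

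Centring each array on its median over the tested genes, an alternative added after the data were seen, shifted the median of all genes in NOD against B6 by -0.12 in CD8+ and -0.09 in CD11b+ cDC after CpG-A. The share of higher calls over all genes then fell from 61.2% to 39.2% and from 60.2% to 47.1%. Among members, the CD8+ split became 1 higher and 6 lower, and the call of H1f2 there ended with an adjusted p of 0.0963. The CD11b+ split stayed at 3 higher and 4 lower. The calls of H2bc8, H2bc4 and H3c4 held under this centring in all 4 comparisons. Markers of B and plasma cells were higher in NOD under PBS for 3 of 9 tested genes in CD8+ and 2 of 9 in CD11b+ cDC, with mean list levels of 7.48 to 8.08 against 6.42 to 7.10 and of 6.92 to 7.99 against 6.43 to 6.87. NK cell markers were lower in NOD CD11b+ cDC for 5 of 10 under PBS and 9 of 10 after CpG-A. Red pulp macrophage markers were lower in NOD CD11b+ cDC under PBS for 3 of 8, with a median of -1.20 and mean list levels of 7.54 to 7.81 against 8.25 to 9.23. In CD8+ cDC under PBS limma called 0 of them, 4 had an unadjusted p under 0.05, all lower, and the levels were 6.94 to 7.29 against 7.0 to 8.51. Of the 22 tested mitosis genes, 6 were lower in NOD CD11b+ and 1 in NOD CD8+ cDC under PBS, with medians of -0.52 and -0.33. Over all genes under PBS, 2.03% were higher and 1.59% lower in NOD CD8+ cDC, and 2.41% and 3.18% in NOD CD11b+ cDC. After CpG-A 9.22% were lower in NOD CD11b+ cDC. The part of these other cell types and of dividing cells in the histone differences was not tested.

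**Figure D2:**
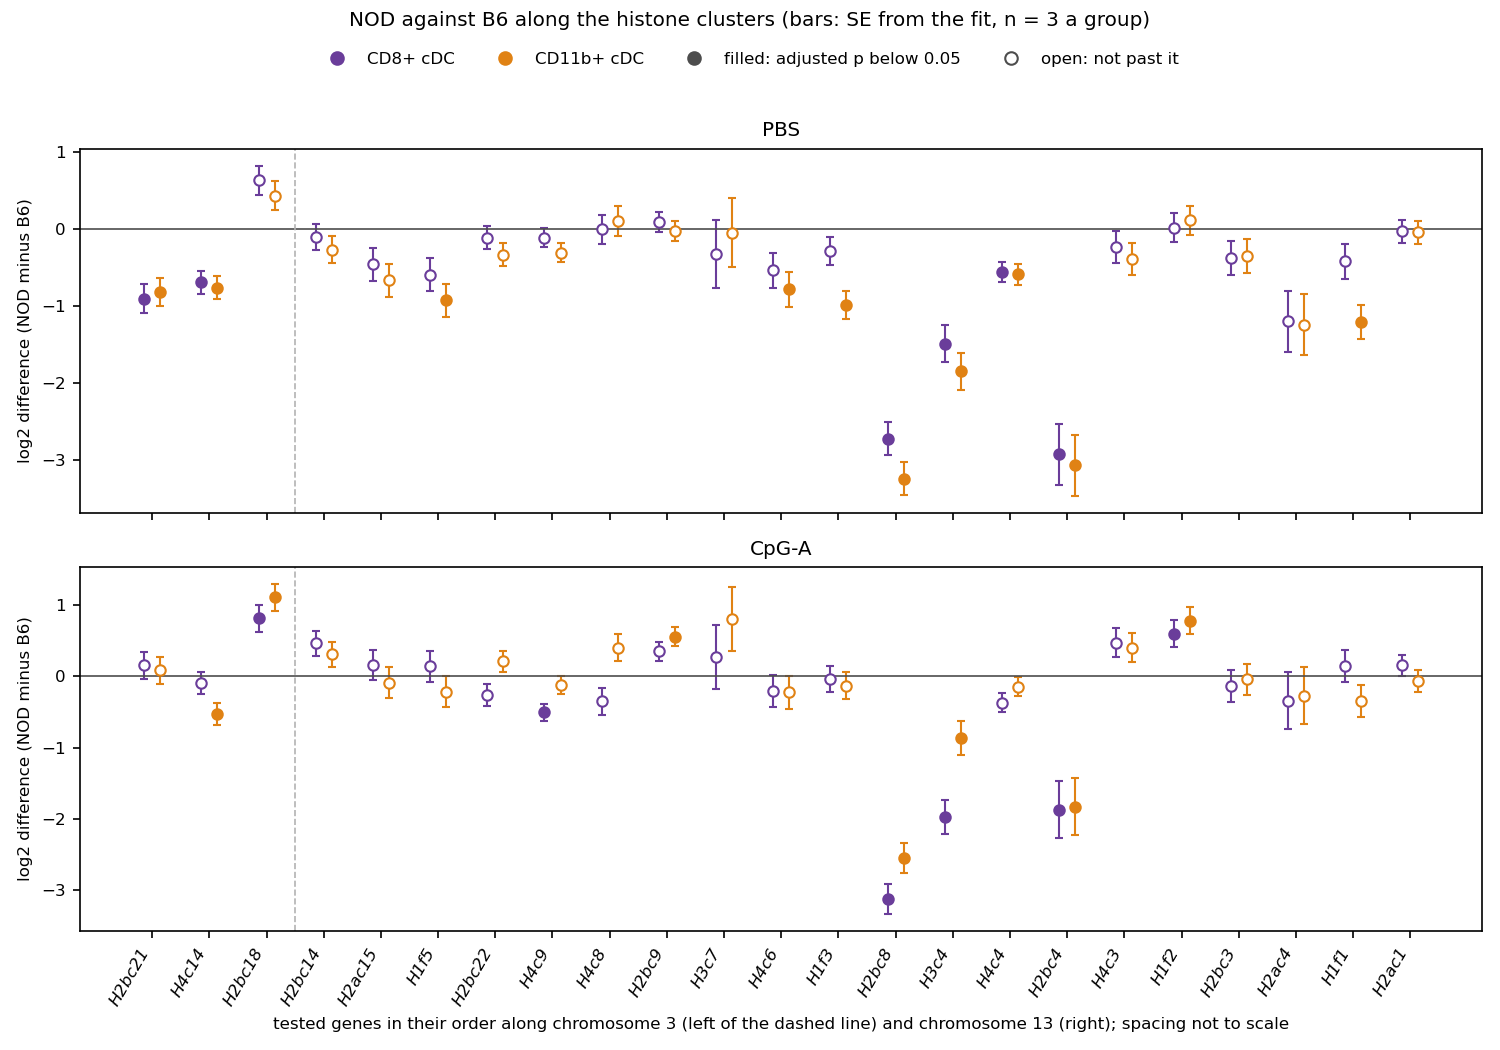
Difference between NOD and B6 (log2, NOD minus B6) for the 23 tested genes in their order along chromosomes 3 and 13, under PBS above and CpG-A below, with standard errors. Purple is CD8+ and orange CD11b+ cDC, and filled points passed the threshold. H2bc8, H3c4 and H2bc4 stand between -3.24 and -0.86, while H4c4 between them lies between -0.59 and -0.14.

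Histone genes fell after CpG-A in B6, and few were called in NOD. In B6 CD8+ cDC, 9 of the 23 tested members fell and 0 rose, where 57.7% of all genes were called, 21.1% higher and 36.6% lower. In B6 CD11b+ cDC, 15 fell and 0 rose, where 38.9% of all genes were called, 15.9% higher and 23% lower. In NOD CD8+ cDC, 2 fell and 0 rose, where 40.7% of all genes were called, 15.1% higher and 25.5% lower. In NOD CD11b+ cDC, 1 fell and 0 rose, where 15.4% were called, 9.7% higher and 5.73% lower. Groups did not overlap for 9 and 15 members in B6 CD8+ and CD11b+ cDC, against 65% and 51.9% of all genes, and for 3 and 2 in NOD, against 44.8% and 35%. The median member difference was -0.42, -0.67, -0.11 and -0.07 in that order, against medians over all genes of -0.10, -0.07, -0.08 and -0.04. Set against the background, the 9 falls in B6 CD8+ cDC, 39.1% of the members tested, lie near the 36.6% of all genes called lower. The 15 in B6 CD11b+ cDC make 65.2%, where 23% of all genes were called lower. H1f3, among the 15, passed the filter only through B6 CD11b+ cDC under PBS. Without it 14 of 22 members fell there.

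H2bc21 fell in all 4 comparisons. In CD8+ cDC it went from 6.94, 7.51 and 7.32 under PBS to 5.68, 5.36 and 5.60 after CpG-A in B6, and from 6.37, 6.13 and 6.56 to 5.71, 5.67 and 5.72 in NOD. In CD11b+ cDC it went from 7.71, 7.61 and 7.70 to 5.87, 6.48 and 6.30 in B6, and from 6.55, 6.96 and 7.07 to 6.38, 6.64 and 5.88 in NOD. The groups were apart in all but NOD CD11b+ cDC, where an array after CpG-A lay above an array under PBS. All 6 CD8+ arrays after CpG-A lay below their array median, so the sizes of the CD8+ falls may be limited by low signal, which was not tested. The differences were -1.71 ± 0.19 with adjusted p = 6.16e-08 in B6 CD8+ cDC, and -1.46 ± 0.19 with adjusted p = 1.27e-06 in B6 CD11b+ cDC. In NOD they were -0.66 ± 0.19 in CD8+ cDC, with adjusted p = 0.00711, and -0.56 ± 0.19 in CD11b+ cDC, with adjusted p = 0.0424. The last call ended under no filter, quantile normalization, median centring, a fit of the 2 groups alone and the removal of replicate 2 or 3 under PBS or replicate 1 or 3 after CpG-A, and its difference ran from -0.73 to -0.35 over the alternatives.

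Linker histone genes also fell in B6. H1f5 read 9.21, 9.46 and 9.25 under PBS and 8.27, 8.56 and 8.47 after CpG-A in CD8+ cDC, a fall of -0.88 ± 0.21 with adjusted p = 0.00125. In CD11b+ cDC it read 10.31, 10.28 and 10.04 and then 9.14, 9.42 and 8.95, a fall of -1.04 ± 0.21 with adjusted p = 0.000445. Neither pair of groups overlapped. H1f1 fell by -0.63 ± 0.22 in CD8+ and -0.85 ± 0.22 in CD11b+ cDC, and H1f2 and H1f3 fell in CD11b+ cDC by -0.52 ± 0.19 and -0.93 ± 0.18, the last subject to the filter. The fall of H1f1 in CD8+ cDC ended under quantile normalization and without replicate 2 under PBS or replicate 1 or 2 after CpG-A, at -0.56 to -0.44. That of H1f2 ended without replicate 2 under PBS or replicate 1 or 3 after CpG-A, at -0.52 to -0.37. In NOD the 4 tested linker genes had differences from -0.15 to 0.16 in CD8+ and from -0.34 to 0.15 in CD11b+ cDC, none of them called.

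Among H2A genes, H2ac4 read 7.91, 7.87 and 7.23 under PBS and 6.31, 6.66 and 6.49 after CpG-A in B6 CD8+ cDC, a fall of -1.18 ± 0.40 with adjusted p = 0.0149. In B6 CD11b+ cDC it read 8.85, 8.81 and 8.44 and then 7.49, 8.00 and 7.11, a fall of -1.17 ± 0.40 with adjusted p = 0.0239. The groups were apart in both subsets, but the first call ended without replicate 1 or 2 under PBS, at -1.08 to -1.06. The second ended without replicate 1 or 2 under PBS or replicate 1 or 3 after CpG-A, at -1.15 to -0.95. H2ac15 fell by -0.73 ± 0.21 in CD8+ and -0.77 ± 0.21 in CD11b+ cDC of B6, and the first was -0.53 and not called without replicate 1 after CpG-A. H2ac1, expressed mainly in testis, had differences of -0.07 ± 0.15 and -0.02 ± 0.15 that did not pass.

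Of the 8 tested H2B genes, 3 fell in CD8+ and 6 in CD11b+ cDC of B6, where 36.6% and 23% of all genes were called lower. Besides H2bc21, H2bc14 fell by -0.74 ± 0.17 and -0.68 ± 0.17 and H2bc9 by -0.50 ± 0.13 and -0.67 ± 0.13 in the 2 subsets. H2bc8, H2bc4 and H3c4 fell in CD11b+ cDC of B6, by -1.11 ± 0.21, -1.15 ± 0.40 and -1.15 ± 0.24, with adjusted p of 0.000246, 0.0256 and 0.000477. The fall of H2bc4 ended without replicate 2 or 3 under PBS or replicate 1 after CpG-A, at -1.18 to -0.84. In B6 CD8+ cDC the same genes had differences of -0.08 ± 0.21, -0.35 ± 0.40 and -0.08 ± 0.24 that did not pass, and their groups overlapped. H2bc3 fell in CD11b+ cDC by -0.59 ± 0.22 with adjusted p = 0.0372, but this call ended without the filter, under quantile normalization, under centring on the tested genes and without any array but replicate 3 under PBS, at -0.62 to -0.42. Of the H4 genes, H4c3 fell in both subsets of B6, by -0.62 ± 0.21 and -0.66 ± 0.21, H4c14 in CD8+ cDC by -0.52 ± 0.15 and H4c8 in CD11b+ cDC by -0.61 ± 0.19. The calls of H4c3 ended without replicate 3 under PBS or replicate 1 after CpG-A in CD8+ cDC, at -0.55 to -0.52, and without replicate 1 or 2 under PBS or replicate 3 after CpG-A in CD11b+ cDC, at -0.58 to -0.53. That of H4c8 was -0.53 and ended without replicate 1 after CpG-A. H4c4 and H4c6 were called in none of the 4 comparisons, with differences from -0.45 to 0.29.

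In NOD CD8+ cDC, H4c8 fell besides H2bc21, from 7.63, 7.37 and 7.59 to 6.42, 7.34 and 7.18, a difference of -0.55 ± 0.19 with adjusted p = 0.0241. The groups did not overlap, and replicate 1 after CpG-A stood lowest. The call ended under centring on the tested genes, in a fit of the 2 groups alone and without replicate 1 of either group or replicate 3 under PBS, at -0.52 to -0.27. Same-numbered arrays deviated together here, with correlations of 0.29, 0.18 and 0.34. With the replicate number as a block, 5 members were called. They included H2bc8 and H3c4, lower with adjusted p of 0.041 and 0.0426, and H2bc4, which was higher by 0.70 ± 0.22 with adjusted p = 0.0116. The count was 1 without replicate 1 or 3 under PBS or without replicate 1 after CpG-A.

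Centring on the tested genes moved the median of all genes by 0.25 in B6 CD8+, 0.15 in NOD CD8+ and 0.12 in B6 CD11b+ cDC for CpG-A against PBS. The share of higher calls over all genes rose from 36.6% to 59.2%, from 37.2% to 55.4% and from 40.8% to 54.7%. Among members it gave 2 higher and 5 lower in B6 CD8+ cDC, where H2bc22 and H4c9 were called higher and H1f1, H2bc9, H4c14 and H4c3 were no longer called. It gave 1 lower in NOD CD8+ and 13 lower in B6 CD11b+ cDC, where H1f2 and H2bc3 were lost. In NOD CD11b+ cDC median centring raised the share of higher calls from 62.9% to 74.1%. It left 0 members called by limma, against 1 called lower, H2bc21, before it. Before centring 1 member in each direction had an unadjusted p under 0.05. NK cell markers rose in B6 CD11b+ cDC after CpG-A for 10 of 10 genes, with a median of 3.50 and mean list levels of 9.33 to 10.45 against 5.86 to 6.77 under PBS. In NOD CD11b+ cDC 6 of 10 rose, with levels of 6.33 to 6.50 against 4.93 to 5.09. In B6 CD8+ cDC 5 of 10 rose, with levels of 5.95 to 6.38 against 5.33 to 5.68. Over all genes, 15.9%, 9.7% and 21.1% rose in these comparisons in that order. The part of NK cells in the histone values was not tested.

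**Figure D3:**
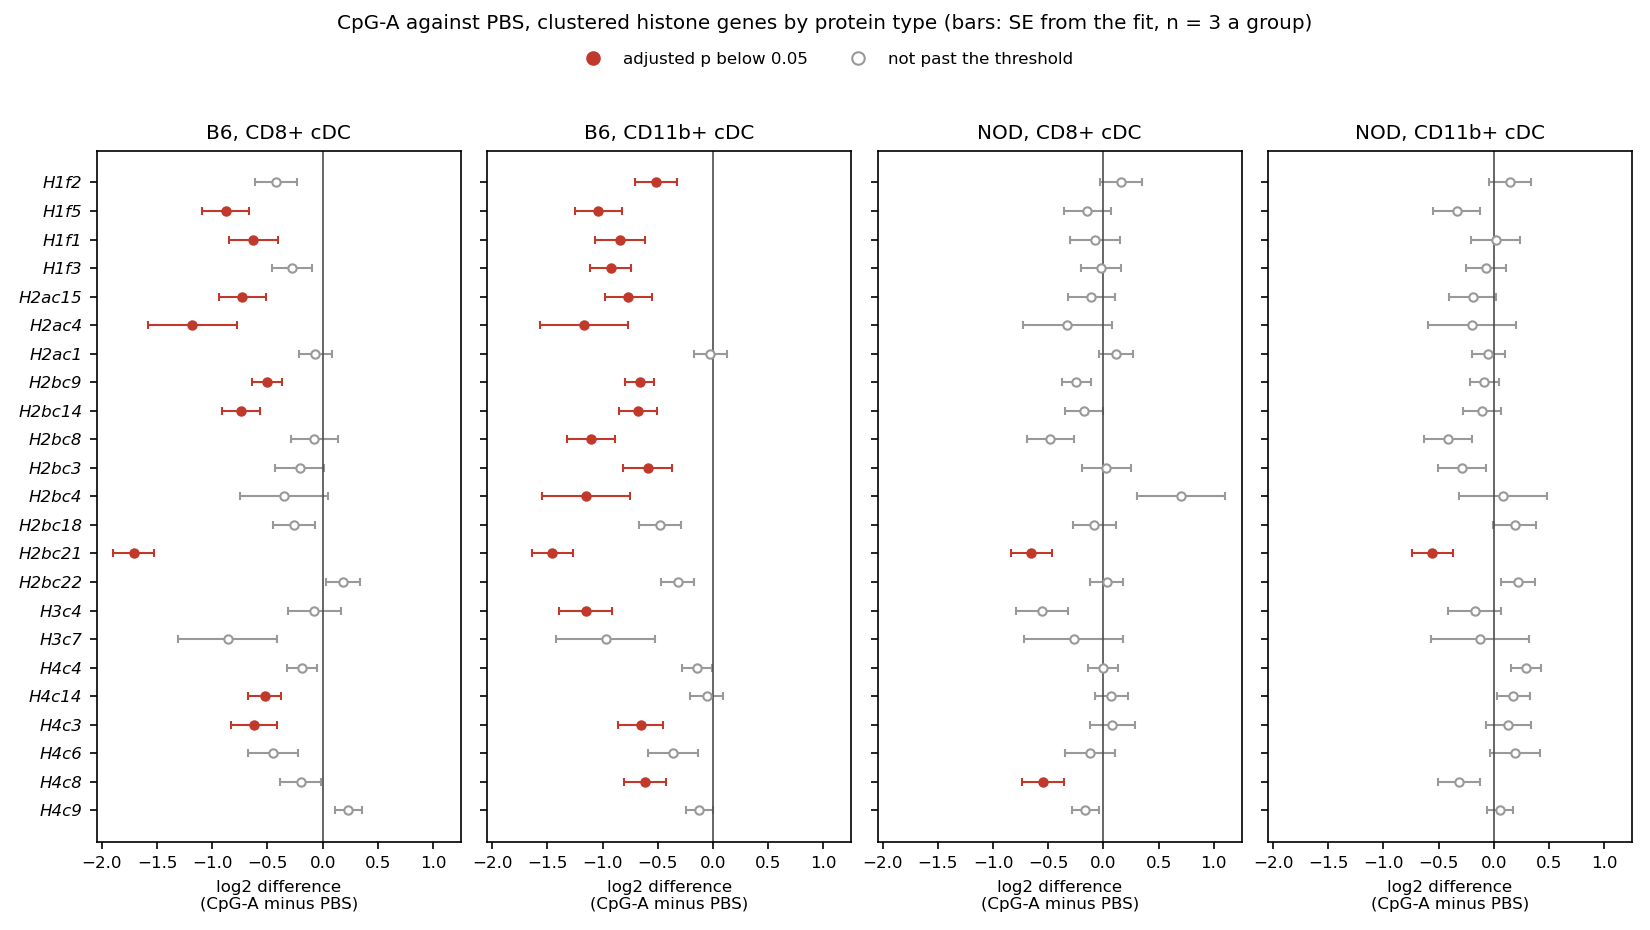
Difference between CpG-A and PBS (log2, CpG-A minus PBS) of the 23 tested members, ordered by protein type, with standard errors, in each strain and subset. Red points passed the threshold. In B6 the called points lie between -1.71 and -0.50, and in NOD 3 points in all were called, between -0.66 and -0.55.

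Whether the response to CpG-A differed between strains or subsets was tested by interaction terms. In CD8+ cDC the response of H2bc21 was smaller in NOD, by 1.05 ± 0.26 with adjusted p = 0.0227, and it was the single member called where 4.02% of all genes were, 1.74% higher and 2.28% lower. Its values after CpG-A lay below the array median on all 6 arrays of both strains, while the strains differed by -0.90 under PBS, so the size of this difference may be limited by low signal, which was not tested. The count was 0 without replicate 2 or 3 of B6 under PBS, replicate 2 of B6 after CpG-A, replicate 1 or 2 of NOD under PBS or replicate 3 of NOD after CpG-A, with H2bc21 at 0.93 to 1.06, and 6 without replicate 1 of NOD after CpG-A. In CD11b+ cDC the median member interaction was 0.66, NOD response minus B6 response, against 0.05 over all genes. Of the 23 members, 22 were above zero and 1 below, where 43.2% of all genes were below zero. H1f3, 1 of the 23, passed the filter only through B6 CD11b+ cDC under PBS. Limma called 0 of these members, where 4.38% of all genes were called, 2.4% higher and 1.98% lower. At an unadjusted p under 0.05 there were 14 members, all above zero, and the share of all genes at that threshold was not counted. Members varied together within groups, with a median r of 0.44, so the 14 are not independent of each other. H2bc21 had the smallest adjusted p, at 0.0524, with an interaction of 0.90 ± 0.26. The count was 1 under quantile normalization, median centring or without replicate 1 of B6 under PBS, replicate 2 of B6 after CpG-A or replicate 3 of NOD after CpG-A, and 3 without replicate 2 of NOD under PBS. Centring on the tested genes lowered the share of higher calls over all genes in this interaction from 54.9% to 42.8% and left 0 members called.

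Between subsets in B6, the response of H2bc8 and H3c4 differed, where 13.4% of all genes were called, 5.84% higher and 7.53% lower. H2bc8 differed by 1.03 ± 0.30 with adjusted p = 0.0263 and H3c4 by 1.08 ± 0.34 with adjusted p = 0.0363, CD8+ minus CD11b+. Both fell after CpG-A in CD11b+ cDC and had differences of -0.08 in CD8+ cDC. The count was 1 without replicate 3 of CD11b+ cDC under PBS. It was 0 without replicate 1 of CD8+ cDC under PBS, replicate 2 or 3 of CD8+ cDC after CpG-A, replicate 2 of CD11b+ cDC under PBS or replicate 1 of CD11b+ cDC after CpG-A. Between subsets in NOD limma called 0 members, where 6.8% of all genes were called, 2.68% higher and 4.12% lower, and 0 had an unadjusted p under 0.05. Centring on the tested genes raised the share of higher calls over all genes from 43.7% to 57.7% in B6 and from 39.4% to 55.9% in NOD, with the member counts at 2 and 0.

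Where members were called between the subsets, they were lower in CD8+ than in CD11b+ cDC with the exception of H3c4. Under PBS, 12 of 23 members were lower and 0 higher in B6, where 21.7% of all genes were called, 9.57% higher and 12.2% lower. In NOD, 6 were lower and 0 higher, where 21.8% of all genes were called, 10.6% higher and 11.2% lower. After CpG-A, 10 were lower and 1 higher in B6, where 37.4% were called, 12.8% higher and 24.5% lower, and 10 were lower and 0 higher in NOD, where 38.6% were called, 14.5% higher and 24.1% lower. Groups did not overlap for 15, 11, 15 and 11 members in that order, against 41.4%, 37.9%, 47.9% and 43.4% of all genes. The median member difference, CD8+ minus CD11b+, was -0.50 and -0.40 under PBS and -0.39 and -0.45 after CpG-A in B6 and NOD, against medians of all genes between -0.07 and -0.01.

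The H4 genes H4c14, H4c3 and H4c4 and the H2B gene H2bc14 were lower in CD8+ cDC in each of the 4 comparisons. H4c14 read 9.92, 10.34 and 10.18 in CD8+ and 10.92, 10.91 and 10.68 in CD11b+ cDC of B6 under PBS, and 9.26, 9.57 and 9.54 against 10.06, 10.01 and 10.15 in NOD. After CpG-A it read 9.39, 9.71 and 9.76 against 10.92, 10.89 and 10.52 in B6, and 9.22, 9.89 and 9.48 against 10.42, 10.16 and 10.17 in NOD. No pair of groups overlapped, and the differences were -0.69 ± 0.15, -0.62 ± 0.15, -1.16 ± 0.15 and -0.72 ± 0.15, with adjusted p of 0.00144, 0.00372, 2.31e-06 and 0.000562. H4c3 was lower by -0.77 ± 0.21, -0.61 ± 0.21, -0.73 ± 0.21 and -0.66 ± 0.21, and H4c4 by -0.43 ± 0.14, -0.40 ± 0.14, -0.47 ± 0.14 and -0.70 ± 0.14. H2bc14 was lower by -0.68 ± 0.17, -0.51 ± 0.17, -0.74 ± 0.17 and -0.59 ± 0.17. Under PBS in NOD the calls of H2bc14, H4c3 and H4c4 ended under median centring and in 4, 5 and 4 of the 6 fits without 1 array. Under PBS in B6 the call of H4c4 ended under median centring and in 3 such fits, and that of H4c3 in 2. After CpG-A the calls of H2bc14 and H4c3 in NOD ended in 2 such fits each, and that of H4c4 in B6 in 1. Of these 4 genes, H4c14 alone kept its call under every alternative in all 4 comparisons.

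The linker genes H1f5 and H1f1 were lower in CD8+ cDC of B6 under PBS, by -0.90 ± 0.21 and -0.86 ± 0.22, with adjusted p of 0.00292 and 0.00654. H1f3 was lower there by -1.06 ± 0.18, but it passed the filter only through the B6 CD11b+ arrays of this comparison and adds no support, and without it 11 of 22 members were lower. In NOD under PBS the differences of H1f5, H1f1 and H1f3 were -0.57 ± 0.21, -0.07 ± 0.22 and -0.36 ± 0.18 and did not pass. H2ac4 was lower after CpG-A by -1.05 ± 0.40 in B6 and -1.12 ± 0.40 in NOD. The NOD call rested on replicate 1 of CD8+ cDC, which read 4.73 against 6.83 and 6.88, and without it the difference was -0.41 with an adjusted p of 0.331. It also ended without any 1 of the CD11b+ arrays, at -1.19 to -1.02, and the B6 call ended in 5 of the fits without 1 array, at -1.14 to -0.81. H3c4 was the single member higher in CD8+ cDC, in B6 after CpG-A, where it read 7.55, 7.87 and 8.25 against 6.74, 7.19 and 7.21. The groups did not overlap, and the difference was 0.84 ± 0.24 with adjusted p = 0.00746. H2bc4 was higher without passing there, by 1.01 ± 0.40 in B6 and 0.97 ± 0.40 in NOD, with adjusted p of 0.0519 and 0.0602, and with the replicate block it passed in both.

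Same-numbered arrays deviated together in all 4 comparisons of the subsets, and the block raised the count in NOD under PBS from 6 to 10 by adding H1f5, H2ac15, H2ac4 and H2bc21. It added H2ac4 and H2bc18 in B6 under PBS, with adjusted p of 0.0361 and 0.0154, for a count of 14. After CpG-A it added H2bc9 besides H2bc4 in B6, for 13, and H3c7 at -0.92 ± 0.32 besides H2bc4 in NOD, for 12, with adjusted p of 0.0228 and 0.0241. The count of 6 without the block rested on single arrays, since it was 1 without replicate 1 of CD8+ cDC or replicate 2 of CD11b+ cDC and 3 without replicate 3 of CD11b+ cDC. In B6 under PBS the count of 12 was 5 without replicate 1 of CD8+ cDC and 6 without replicate 2 of CD11b+ cDC. After CpG-A the count of 11 in B6 was 6 without replicate 2 of CD11b+ cDC, and the count of 10 in NOD was 4 without replicate 1 of either subset. Centring on the tested genes shifted the median of all genes by 0.17 in B6 and 0.14 in NOD after CpG-A, and the share of higher calls over all genes rose from 34.3% to 57.3% and from 37.5% to 55.6%. Members then split into 5 higher and 8 lower in B6, where H2bc4, H2bc8, H2bc22 and H4c9 joined H3c4, and into 1 higher and 9 lower in NOD.

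Cell cycle genes and markers of other cell types also differed between the subsets. DNA replication genes were lower in CD8+ cDC for 17 of 44 in B6 and 4 in NOD under PBS, and for 26 and 6 after CpG-A, with 1 higher in the last. Mitosis genes were lower for 7 and 5 of 22 under PBS and for 19 and 6 after CpG-A. Over all genes, 12.2% in B6 and 11.2% in NOD were lower under PBS, and 24.5% and 24.1% after CpG-A. NK cell markers were lower in CD8+ cDC of B6 for 4 of 10 under PBS and 10 of 10 after CpG-A, with medians of -0.64 and -3.84. In NOD 1 was higher under PBS and 5 were lower after CpG-A, with mean list levels of 5.14 to 5.37 against 4.93 to 5.09 and of 5.75 to 6.05 against 6.33 to 6.50. Red pulp macrophage markers were lower for 4 of 8 in B6 under PBS. Their part in the histone differences between subsets was not tested.

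**Figure D4:**
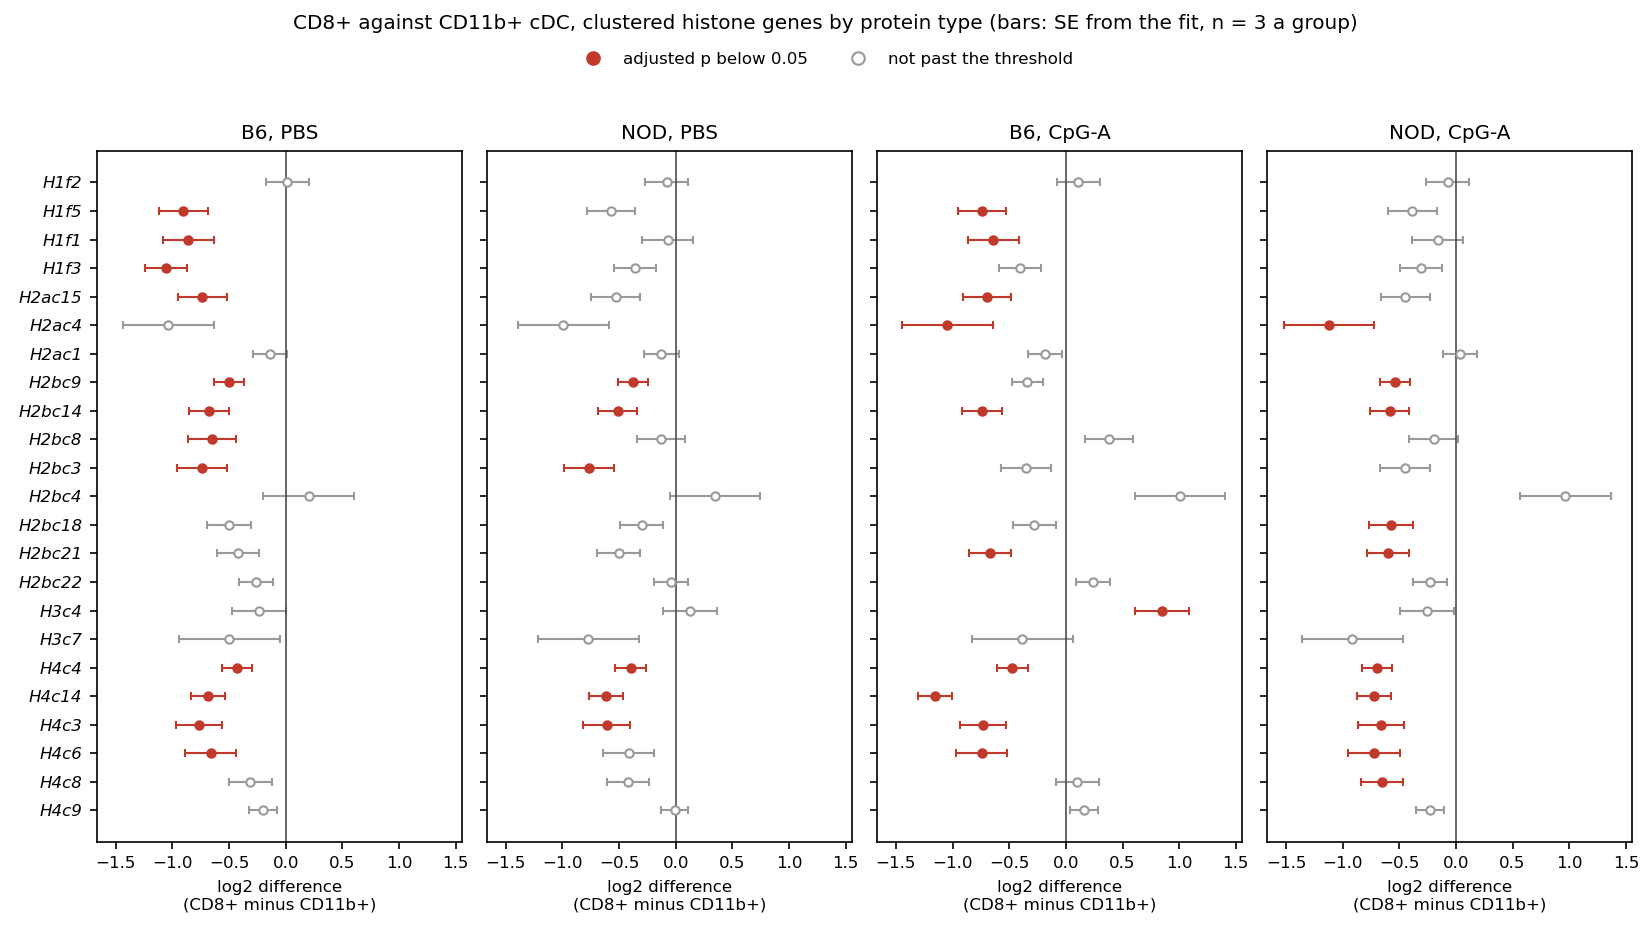
Difference between CD8+ and CD11b+ cDC (log2, CD8+ minus CD11b+) of the 23 tested members, ordered by protein type, with standard errors, in each strain under PBS and after CpG-A. Red points passed the threshold. H4c14, H4c3, H4c4 and H2bc14 were lower in CD8+ cDC in all 4 panels, and H3c4 was higher in B6 after CpG-A.

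Genes for factors that make or process histone messages were read beside the members. SLBP binds the stem-loop at the message end, and Slbp had mean levels between 7.64 and 8.16 over the 8 groups. It was called in none of the 12 comparisons of groups, and after CpG-A its differences were 0.32 ± 0.15, 0.30 ± 0.15, 0.15 ± 0.15 and 0.30 ± 0.15 in B6 CD8+, NOD CD8+, B6 CD11b+ and NOD CD11b+ cDC. Npat, the transcriptional activator of the clusters, had means between 6.35 and 6.70 and was called in none either. Of 21 tested genes for histone message transcription and 3-prime processing, 4 rose and 7 fell after CpG-A in B6 CD8+ cDC and 2 rose and 4 fell in B6 CD11b+ cDC, against 2 and 5 in NOD CD8+ cDC. In NOD CD11b+ cDC limma called 0 of these genes, and 3 had an unadjusted p under 0.05, all higher. Over all genes, 21.1%, 15.9%, 15.1% and 9.7% rose and 36.6%, 23%, 25.5% and 5.73% fell in that order. The list counts were not tested against these shares. Cpsf3, the endonuclease that cuts histone pre-mRNA, fell by -1.44 ± 0.19 in B6 CD8+, -1.01 ± 0.19 in NOD CD8+ and -0.75 ± 0.19 in B6 CD11b+ cDC.

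Histone chaperones, which carry histones to and from DNA, were called in both directions, as were all genes. Of 19 tested, 4 rose and 9 fell in B6 CD8+, 3 rose and 8 fell in NOD CD8+, 2 rose and 5 fell in B6 CD11b+ and 2 rose and 1 fell in NOD CD11b+ cDC after CpG-A. Over all genes, 21.1%, 15.1%, 15.9% and 9.7% rose and 36.6%, 25.5%, 23% and 5.73% fell in the same order. Daxx, an H3.3 chaperone, rose by 2.48 ± 0.16, 2.43 ± 0.16, 2.64 ± 0.16 and 2.43 ± 0.16 in that order. Hat1, which acetylates new H4, rose by 1.70 ± 0.11, 1.04 ± 0.11, 1.19 ± 0.11 and 0.97 ± 0.11. Of 7 tested replacement histones, 4 fell in B6 CD8+ and 3 in NOD CD8+ cDC after CpG-A, among them Cenpa, the centromeric H3, by -0.99 ± 0.17 and -0.47 ± 0.17. H2az1, which encodes H2A.Z, kept means between 12.04 and 12.33 and was called after CpG-A only in B6 CD11b+ cDC, by 0.25 ± 0.08. H3f3a stayed under the filter and was not tested.

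The cell cycle genes were read beside the members because clustered histone genes are transcribed in S phase. Of 22 tested mitosis genes, 15 fell in B6 CD8+ and 6 fell and 1 rose in B6 CD11b+ cDC after CpG-A, against 1 fall in NOD CD8+ and 1 rise in NOD CD11b+ cDC. The median differences of this list were -0.58, -0.38, -0.09 and -0.08. Over all genes, 36.6%, 23%, 25.5% and 5.73% fell and 21.1%, 15.9%, 15.1% and 9.7% rose in the same order. Mki67, a marker of dividing cells, fell by -1.08 ± 0.21 in B6 CD8+ and -0.69 ± 0.21 in B6 CD11b+ cDC and had differences of -0.36 ± 0.21 and -0.20 ± 0.21 in NOD that did not pass. Top2a fell in B6 CD8+ cDC by -0.71 ± 0.22 and differed by -0.37 ± 0.22 in B6 CD11b+ cDC without passing. Of 44 tested DNA replication genes, 6 rose and 13 fell in B6 CD8+, 8 rose and 1 fell in NOD CD8+, 2 rose and 4 fell in B6 CD11b+ and 1 rose and 0 fell in NOD CD11b+ cDC. The shares of all genes given for the mitosis genes apply here too. Pcna, the sliding clamp of DNA polymerase, fell in B6 CD8+ cDC by -0.50 ± 0.17.

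The mean level of the 23 tested members was 8.54 to 8.93 in B6 CD11b+ cDC under PBS, above the arrays of every other group. H1f3, 1 of the 23, passed the filter only through that group, and the mean without it was not computed. The mean level was 8.04 to 8.42 in B6 CD8+ cDC under PBS, 7.94 to 8.21 in B6 CD11b+ cDC after CpG-A and 7.56 to 7.86 in B6 CD8+ cDC after CpG-A. In NOD it was 7.73 to 8.26 and 7.79 to 8.12 in CD11b+ cDC and 7.42 to 7.78 and 7.22 to 7.73 in CD8+ cDC, PBS before CpG-A, so the injections overlapped in NOD and not in B6. The mean level of the mitosis list also separated the injections in B6, with 6.57 to 6.80 against 5.90 to 6.15 in CD8+ and 6.94 to 7.21 against 6.61 to 6.90 in CD11b+ cDC. In NOD it overlapped, with 5.97 to 6.47 against 5.82 to 6.40 and 6.41 to 6.72 against 6.44 to 6.70. The mean level of the DNA replication list overlapped between injections in both strains. It was 6.85 to 6.95 against 6.58 to 6.88 in CD8+ and 7.25 to 7.48 against 7.18 to 7.37 in CD11b+ cDC of B6, and 6.73 to 6.98 against 6.68 to 7.28 and 6.99 to 7.2 against 7.13 to 7.17 in NOD. These are descriptions over lists, with no test of the lists.

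**Figure D5:**
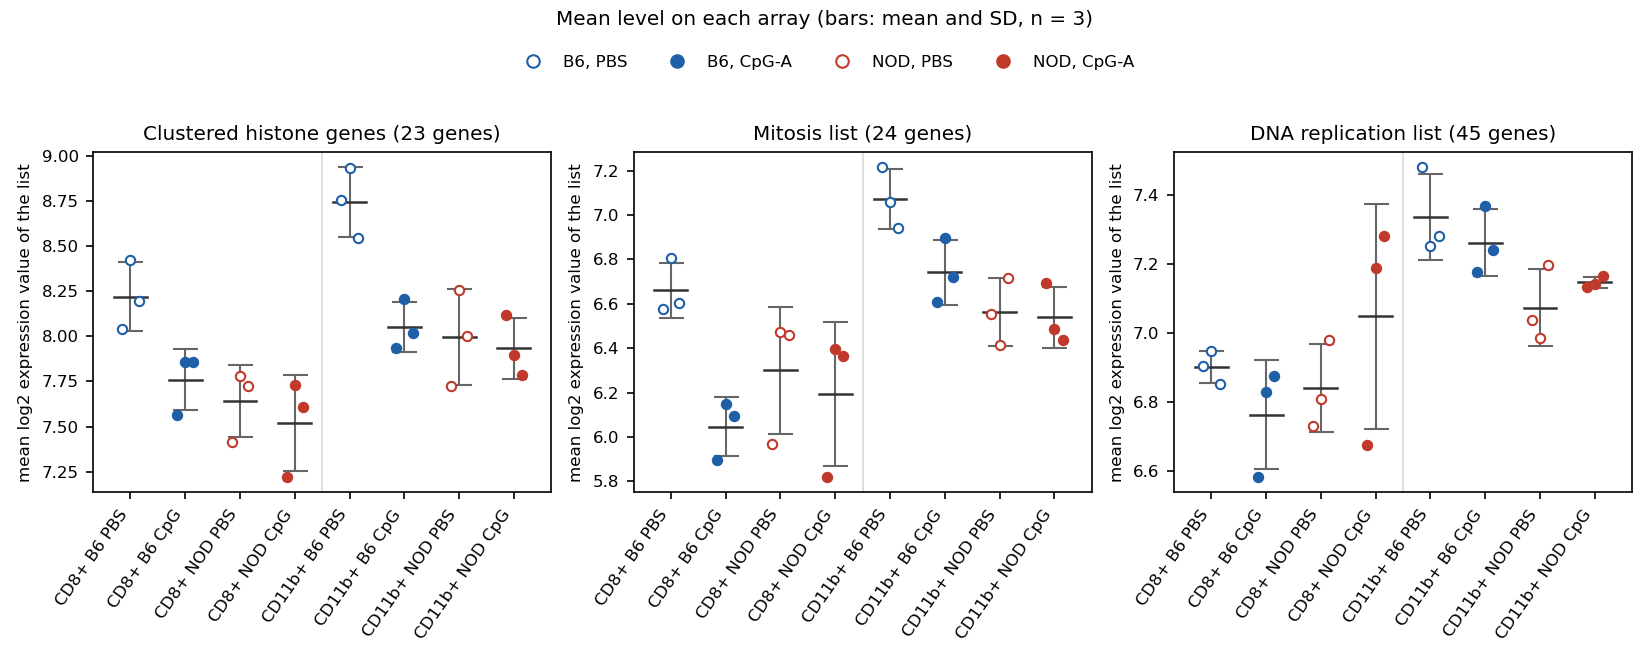
Mean log2 expression value on each array of the 23 tested clustered histone genes, of the mitosis list and of the DNA replication list, with 8 groups on the horizontal axis. Open points are PBS, filled points CpG-A, blue B6 and red NOD, and bars give the mean and SD of 3 arrays. The 23 include H1f3, which passed the filter only through B6 CD11b+ cDC under PBS. Histone levels separate PBS from CpG-A in B6 and overlap in NOD, and replicate 1 of NOD CD8+ cDC is lowest within its group under both injections.

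Members varied together from array to array. Over 253 pairs of tested members the median correlation of the deviations from the group means was 0.44, and 238 pairs were above zero. This is a description over 24 arrays that share normalization. Pairs of other genes were not correlated, so whether members vary together more than other genes was not tested. H2bc14 with H2bc3 and H2ac15 with H4c6 were the closest pairs, each with r of 0.90. Over the 24 array values, H1f5 and H2ac15 were most alike, with r of 0.96. H2bc4, H2bc8 and H3c4 were alike over all arrays but less so within groups, where H2bc4 and H3c4 had r of 0.18.

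Each array's mean correlation with the others of its group was 0.950 to 0.988 over the tested genes. The 3 arrays of NOD CD8+ cDC after CpG-A stood lowest, at 0.950, 0.971 and 0.962, and that group had the largest median SD, 0.22 over all genes and 0.33 over members. Sort markers matched the labels, since Cd8a had group means of 11.06 to 11.52 in CD8+ and 5.44 to 8.38 in CD11b+ cDC and Itgam, which encodes CD11b, 4.83 to 5.07 and 7.02 to 9.0. Itgax, which encodes CD11c, lay between 8.59 and 11.30. Cd8a rose in CD11b+ cDC after CpG-A by 1.42 ± 0.26 in B6 and 1.12 ± 0.26 in NOD, and Itgam fell there by -1.99 ± 0.24 and -1.41 ± 0.24.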

How the data were processed

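The authors deposited 1 log2 value per probe set and array. The submitters' processing notes name RMA and Partek without versions. The 35556 probe sets spanned 1.92 to 14.1, and no second normalization was applied. The platform annotation listed 23410 probe sets, 21789 of them with a single symbol, and symbols were updated by gene ID for 21698. The highest-mean probe set stood for each gene. In R 4.3.3, limma 3.58.1 fitted 8 group means with 16 residual degrees of freedom and tested 16 contrasts two-sided with eBayes and its trend. Benjamini-Hochberg adjustment ran over the 11228 genes tested within each contrast. The fit was tested on simulated data.

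All members could be named. Those with the largest called differences, up to 6 per comparison, and those called in interactions were to be given in full, and of other lists up to 4 called genes and 2 uncalled ones per comparison. Members and lists were chosen with earlier results of these data known. The array model named in the labels differs from the annotation that the probe sets match, and probe sequences were not used, so base differences between NOD and the reference under a probe were not tested. The number of arrays limits the precision. Same-numbered arrays, numbered in the sample titles, were taken as paired where every pair's deviations correlated above 0.1. This held for CpG-A against PBS in both NOD subsets, for all 4 comparisons of subsets and for NOD against B6 in CD8+ cDC. The labels do not say what a number shares.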

Additional observations from a re-analysis of the deposited data

Results flagged for a closer look

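The response to CpG-A differed for 3 members in a test of the difference itself. Between strains in CD8+ cDC 1 of 23 members was called, where 4.02% of all genes were. Between subsets in B6 2 of 23 were called, where 13.4% of all genes were. The calls of H2bc21, H2bc8 and H3c4 ended in 6, 5 and 6 of the 12 fits without 1 array. H2bc21 fell less in NOD than in B6 CD8+ cDC, by 1.05 ± 0.26 with an adjusted p of 0.0227 from limma. All 6 of its CD8+ arrays after CpG-A lay below the array median, so the size of this difference may be limited by low signal, which was not tested. In B6, H2bc8 fell in CD11b+ but was not called in CD8+ cDC, and the responses differed by 1.03 ± 0.30 with an adjusted p of 0.0263. H3c4 did likewise, by 1.08 ± 0.34 with an adjusted p of 0.0363.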

How the results depend on the processing

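Of 98 called pairs of member and comparison, 46 kept their call under every alternative run and 0 changed direction. The block kept all 98 calls. CpG-A against PBS in NOD CD11b+ cDC gave 0 without the filter, under quantile normalization, under median centring and with the groups fitted alone. In NOD CD8+ cDC it gave 5 with the replicate block and 1 with centring on the tested genes. CD8+ against CD11b+ cDC in NOD gave 2 under median centring, 10 with the replicate block and 10 with the groups alone under PBS, and 6 with the groups alone after CpG-A. NOD against B6 in CD8+ cDC after CpG-A gave 3 with the groups alone. The strain by CpG-A interaction gave 2 with the replicate block in CD8+ cDC, where same-numbered arrays of B6 were not shown to be paired. In CD11b+ cDC it gave 1 under quantile normalization, 1 under median centring, 4 with the groups alone and 4 with the block, where same-numbered arrays of B6 were not shown to be paired either. The subset by CpG-A interaction in B6 gave 1 without the filter and 1 under median centring. Testing every listed probe set alone and centring on the tested genes were chosen after seeing the data, and the first moved no count.

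Leaving out each array in turn gave, for CpG-A against PBS, 7 to 10 members in B6 CD8+, 1 to 3 in NOD CD8+, 10 to 16 in B6 CD11b+ and 0 to 1 in NOD CD11b+ cDC. CD8+ against CD11b+ cDC gave 5 to 13 in B6 and 1 to 8 in NOD under PBS, and 6 to 11 and 4 to 12 after CpG-A. NOD against B6 gave 4 to 6 in CD8+ and 7 to 11 in CD11b+ cDC under PBS, and 5 to 8 and 5 to 7 after CpG-A. The interactions of strain gave 0 to 6 in CD8+ and 0 to 3 in CD11b+ cDC, and those of subset 0 to 2 in B6 and 0 to 0 in NOD. Signal over background left 4 members untested.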

Other observations

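Besides the members, 26 probe sets carried several histone symbols each and could not be given to a gene. Of these, 25 were tested among 13247 listed probe sets. In B6, 21 of the 25 were lower after CpG-A in CD8+ cDC and 20 in CD11b+ cDC. Of all probe sets, 58.4% and 40.1% were called there in either direction. All 10 probe sets for H3 were among the lower ones in both subsets, with medians of -1.0 and -0.72. They carried 12 symbols each and lay close together, from -1.06 to -0.95 and from -0.75 to -0.68. They may read the same messages and are not independent. In NOD, 2 of the 25 were lower in CD8+ cDC and limma called 0 in CD11b+ cDC. Of all probe sets, 41.3% and 16.5% were called there in either direction. The 7 probe sets for H2B, with 14 or 15 symbols each, were all higher in NOD than in B6 after CpG-A in both subsets. They too lay close together, from 0.36 to 0.52 and from 0.36 to 0.54. They may read the same messages and are not independent. Their medians were 0.45 and 0.49, where 20.5% and 23% of all probe sets were called in either direction. Under PBS limma called 0 of the 25 between strains in CD8+ cDC and 7, all lower in NOD, in CD11b+ cDC. There 3.75% and 6.17% of all probe sets were called. In that order H2B had medians of 0.27 and 0.17, H3 of -0.31 and -0.56 and H4 of -0.38 and -0.49.

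H2aw and H2bu2 are histone genes whose platform symbols lie outside the rule. H2aw had group means of 9.65 ± 0.11 in B6 and 8.70 ± 0.14 in NOD CD8+ cDC under PBS (SD, n = 3), and of 9.86 ± 0.16 and 8.30 ± 0.23 in CD11b+ cDC. After CpG-A they were 9.70 ± 0.18 and 9.48 ± 0.16 in CD8+ and 9.77 ± 0.21 and 8.73 ± 0.31 in CD11b+ cDC. H2bu2 had means of 6.54 ± 0.18 in B6 and 5.45 ± 0.34 in NOD CD11b+ cDC under PBS and of 5.78 ± 0.18 and 5.70 ± 0.22 after CpG-A. These 2 genes were added after their values were seen and were given no test here.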
